A study of Mus musculus with 2 samples.

Results

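Transcripts of the epidermal growth factor (EGF) receptor family, its ligands and its inhibitors were examined in epithelial cells of the colon, taken from 7-week-old mice of the inbred strain C57BL/6. Incubation was either with the buffer PBS or with MIF, taken here to be the cytokine macrophage migration inhibitory factor, and both groups share strain, age and cell source. RNA of each incubation was hybridised to a single Affymetrix array, which measures each transcript with 1 or more groups of probes called probe sets. The sources used here do not state the dose, the incubation time or how many animals stood behind each array. The gene set comprised the receptors Egfr, Erbb2 and Erbb3, the ligands Areg, Ereg, Tgfa, Hbegf and Btc, and the inhibitors Errfi1 and Lrig1. Every probe set whose only gene symbol was that of a member was taken. In this way 9 of the 10 genes were found, with 18 probe sets, out of 8721 named genes on the arrays. Areg, for amphiregulin, had no probe set under its symbol and was not analysed here.

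Receptors of this family are surface tyrosine kinases that signal as pairs. EGFR binds most of the ligands, ERBB2 has no known ligand of its own and is the preferred partner of the others, and ERBB3 has a weak kinase and signals through its partners, chiefly to PI3 kinase. The ligands are made as membrane-anchored precursors that are cut free by metalloproteases, and signalling is held back by inhibitors that the pathway itself induces. In the intestine EGF receptor signalling is known for driving the growth of crypt cells and the repair of the epithelium.

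With 1 array per incubation no spread between cell preparations could be measured, so no difference has a test, a p-value or an SD between samples, and precision is limited by having 2 arrays. A difference is the log2 signal with MIF minus that with PBS. Signals below a floor of 232, the 40th percentile of both arrays, were raised to it. Each gene was represented by its brightest probe set, and a gene was not assessed where neither array reached the floor. As a gauge of error within the arrays, the differences of separate probe sets of a gene had a pooled SD of 0.15 on the log2 scale over 1800 genes. Signals of different genes are not compared, since probes differ in how strongly they bind.

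The median signal over the table was 337 with PBS and 346 with MIF. The epithelial label was checked against 11 markers, of which 10 were present and above the floor with both agents, led by Krt8 at 14619 with PBS and 13874 with MIF, with Epcam at 8889 and 8830. Their summed signal was 85594 with PBS and 82570 with MIF. Markers of some other cells differed between the arrays. The summed signal of 6 T and NK cell markers was 1553 with PBS and 803 with MIF, set mainly by the granzymes Gzma and Gzmb, and 4 of the 6 were under the floor on both. The summed signal of 9 fibroblast markers was 841 and 2007, led by Dcn at 235 and 678 and Col3a1 at 227 and 554, and 6 of the 9 were under the floor on both, Pdgfra at 3.93 and 43.0 and Col1a1 at 15.3 and 88.7 among them. Sums for 9 myeloid markers were 1978 and 2100, set mainly by Cd14 at 1318 and 1307, and 7 of the 9 were under the floor on both. For 3 mast cell markers the sums were 642 and 540. Kit was higher with MIF (167 and 254), Mcpt1 (226 and 136) and Mcpt2 (248 and 150) lower, each under the floor on 1 array or both. For 2 smooth muscle markers the sums were 756 and 760. Mylk was lower with MIF (658 and 574), and Acta2 higher (97.4 and 186) but under the floor on both. The B and plasma cell and endothelial markers found, 2 of each, never reached the floor, and no neuron and glia marker was in the table. The part of these other cells in the values given here was not tested. Fewer cells of a type and less RNA per cell cannot be told apart in such samples.

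Erbb2, Erbb3, Tgfa, Hbegf, Errfi1 and Lrig1, the 6 members above the floor on both arrays, had small differences on their brightest probe sets, and none of the 6 differed by 2-fold, 1.5-fold or 1.2-fold. Over all 5837 assessed genes, 0.154% differed by 2-fold, 1.1% by 1.5-fold and 13.1% by 1.2-fold, so a count of 0 among 6 is close to that background. Differences of the 6 ran from -0.14 for Erbb2 to 0.12 for Errfi1, with a median of -0.03, beside -0.01 for all assessed genes. All 6 lay within the pooled SD between probe sets of a gene. Second probe sets of Errfi1 and Lrig1 passed 1.2-fold and are given with those genes. Of the other 3 members, Egfr reached the floor on the MIF array alone and has only a lower bound, and Ereg and Btc were not assessed. With the floor at the 20th percentile these 3 were each at least 1.2-fold higher on the MIF array, where 10.2% of the 7338 genes then assessed were as well. That share is over bright and dim genes together and was not taken among genes of like signal. In either direction the share of all genes past 1.2-fold rose from 13.1% to 17.8% with this lower floor.

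**Figure D1:**
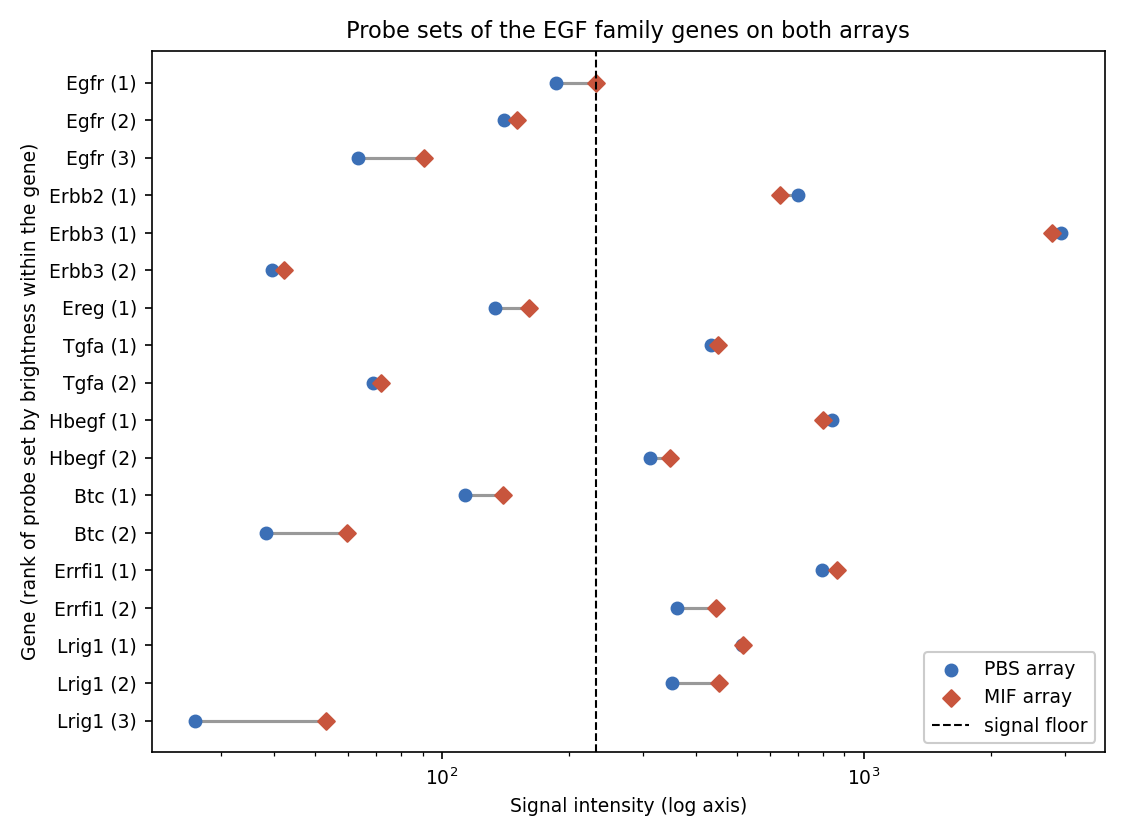
Signal intensity (log axis) of the 18 probe sets of the EGF family genes on the PBS array (circles) and the MIF array (diamonds), with the probe sets of a gene numbered from the brightest. Most pairs of points lie close together; the 8 probe sets entirely to the left of the dashed floor at 232, and the brightest Egfr probe set whose MIF point sits on it, all have the MIF signal to the right of the PBS signal.

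The receptors were examined first. Erbb3, the kinase-weak receptor, had a signal of 2942 with PBS and 2790 with MIF, 1.05-fold lower. A second Erbb3 probe set gave 39.5 and 42.3, far under the floor, and was not read. Erbb2, the partner receptor, was at 697 with PBS and 635 with MIF, 1.10-fold lower, measured by its only probe set. Erbb2 and Erbb3 were thus both lower on the MIF array, by amounts (-0.14 and -0.08) that are within the spread of probe sets of a gene.

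Egfr, the receptor of EGF itself, was measured near or under the floor by all 3 of its probe sets. The brightest gave 187 with PBS and 232 with MIF, the next 140 and 151, and the dimmest 63.2 and 90.8. The MIF array was higher in all 3, but only the brightest reached the floor, by 231.9 against 231.6, and only on the MIF array. Its difference is therefore a lower bound of 0.0018 on the log2 scale, and Egfr counts as assessed only because of its higher array. With the floor lowered to the 20th percentile of signals (90.1) the same probe set gave 0.31, or 1.24-fold. With the array controls included when the percentile was taken, the floor was 232.8 and Egfr was not assessed.

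Among the ligands, Tgfa and Hbegf could be assessed. Tgfa, for transforming growth factor alpha, which binds EGFR alone, was at 434 with PBS and 451 with MIF, a difference of 0.06. The second Tgfa probe set, at 68.8 and 71.6, was under the floor. Hbegf, for heparin-binding EGF-like growth factor, was at 840 and 802, a difference of -0.07. A second Hbegf probe set, also above the floor, gave 311 and 347, a difference of 0.16. The sign of the Hbegf difference thus depended on the probe set, and the mean of both was 0.05.

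Ereg and Btc, for the ligands epiregulin and betacellulin, did not reach the floor with either agent. The single Ereg probe set gave 134 with PBS and 161 with MIF. The Btc probe sets gave 113 and 140, and 38.3 and 59.5. No fold is given for these, since both arrays have only a bound. Across the family, 8 probe sets were below the floor with both agents, and the MIF signal was the higher in all 8. Over all 5388 such probe sets of named genes the MIF signal was the higher in 62.0%. The 8 belong to 6 genes and are not independent, and this share is given as a description.

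The inhibitors Errfi1 and Lrig1 were also assessed. Errfi1, an inducible cytoplasmic protein that binds the receptor kinase domain and blocks it, was at 795 with PBS and 862 with MIF, a difference of 0.12. Its second probe set, which by its type may bind related transcripts, gave 360 and 447, a difference of 0.31. Both probe sets of Errfi1 were higher on the MIF array, the dimmer by 1.24-fold and the brighter by 1.08-fold. Lrig1, a membrane protein that lowers receptor levels and marks crypt stem cells, was at 513 and 517 on its brightest probe set, a difference of 0.0092. A second Lrig1 probe set of the same cross-binding type gave 351 and 453, a difference of 0.37. The third, at 26.0 and 53.0, was under the floor.

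The probe sets of Lrig1 therefore gave nearly equal arrays or a 1.29-fold higher MIF signal, depending on which was read. Their SD of 0.25 was reached by 124 of the 1800 genes with more than 1 probe set above the floor, or 6.89%. For Hbegf the SD of 0.16 was reached by 450 of those genes, and for Errfi1 the SD of 0.14 by 548. In each of these 3 genes the second probe set gave the higher difference, as it did in 59.8% of the 1800. The second probe set was at least 1.2-fold higher on the MIF array in 10.2% of the 1800 genes, Errfi1 and Lrig1 included.

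**Figure D2:**
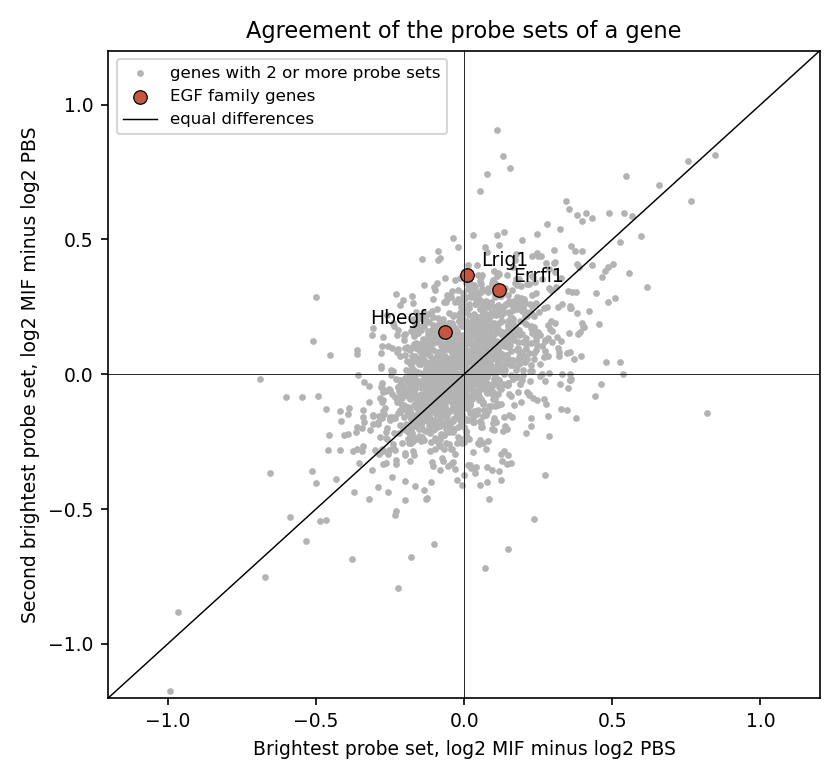
Difference (log2 MIF minus log2 PBS) of the brightest probe set of each gene on the horizontal axis and of its second brightest on the vertical axis, for the 1800 genes where more than 1 probe set exceeded the floor with PBS and with MIF. Hbegf (-0.07 and 0.16), Errfi1 (0.12 and 0.31) and Lrig1 (0.0092 and 0.37) lie above the line of equal differences and inside the cloud of other genes.

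Each assessed member above the floor on both arrays was then set beside the 500 other genes nearest to it in mean signal. All 6 lay inside the range holding the middle 95% of those genes. Differences at least as far from 0 as that of Erbb2 were found in 41.8% of its 500 neighbours in signal, whose middle range ran from -0.39 to 0.40. For Errfi1 the share was 44.0%, for Erbb3 62.8%, for Hbegf 65.2%, for Tgfa 75.0% and for Lrig1 96.2%. These shares describe the 2 arrays and are not p-values.

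**Figure D3:**
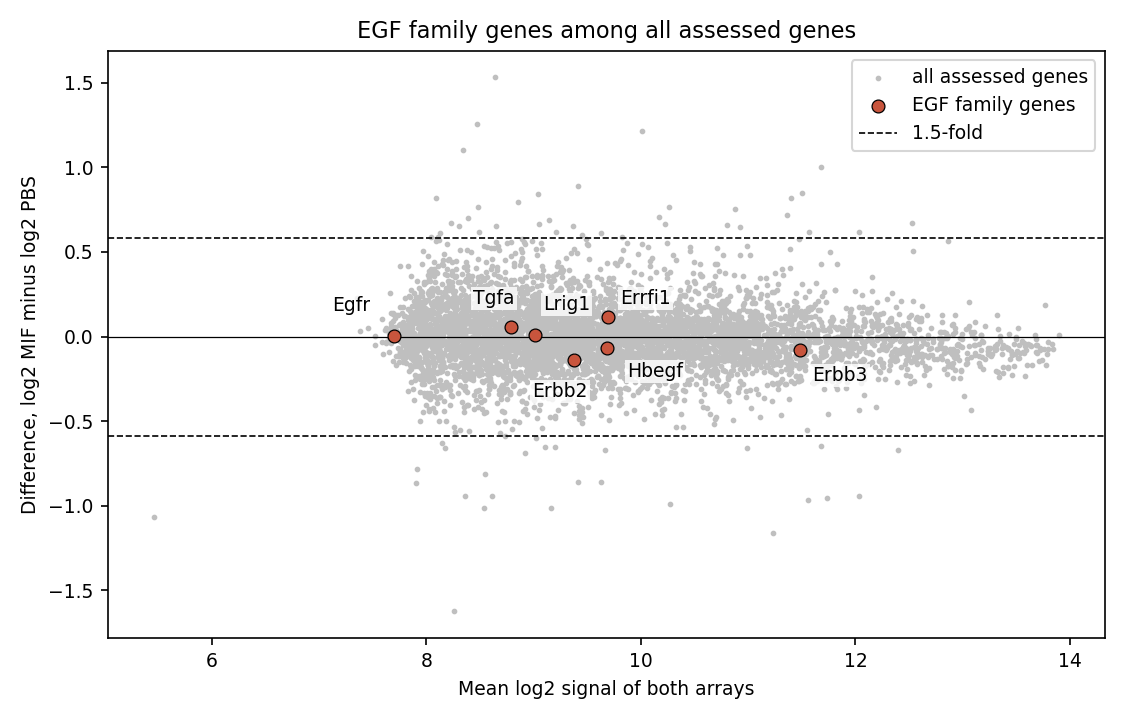
Difference (log2 MIF minus log2 PBS, floored signals) against mean log2 signal of both arrays for all 5837 assessed genes (grey) and the 7 assessed EGF family genes (red). The red points lie between -0.14 and 0.12, inside the dashed lines at 1.5-fold, with Egfr drawn at its lower bound of 0.0018.

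Other genes of the pathway were followed in 10 lists with 142 genes, the members included. Of these genes 110 had a probe set and 88 were assessed. Counts in this paragraph take the brightest probe set of each gene. None of the 88 reached 1.5-fold on it, against the background of 1.1%. A second probe set of Akt1, above the floor on both arrays, gave a difference of 0.68, which is past 1.5-fold. At 1.2-fold, 9 of the 88 were higher on the MIF array and 1 was lower, against 6.82% and 6.29% of all assessed genes. By sign alone, 59 were higher and 29 lower, or 67.0% higher, against 46.7% of all assessed genes. The median difference was 0.06. Of the 88, 2 reached the floor only with MIF, Egfr and Cbl, so their differences are lower bounds. Both could only count as higher, and none of the 88 reached the floor only with PBS.

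The remaining receptor and ligand genes gave little to read. Erbb4 had no probe set under its symbol. Egf, at 30.6 with PBS and 50.1 with MIF, and the neuregulin genes Nrg3, at 11.4 and 13.1, and Nrg4, at 55.8 and 34.2, were under the floor on both arrays. Of the ligand list, 2 of 7 genes in the table were thus assessed, both of them members.

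Of 8 receptor inhibitors with a probe set, 6 were assessed, with a median of 0.06. The tyrosine phosphatase gene Ptprj, whose product removes phosphate from EGFR, was at 340 with PBS and 417 with MIF, 1.23-fold higher. Rnf41, a ubiquitin ligase that directs ERBB3 to degradation, was at 295 and 356, 1.21-fold higher. Ptpn1, another phosphatase acting on the receptors, was at 703 and 625, a difference of -0.17, against a lower bound of 0.04 on a second probe set. Ptprj and Rnf41 were the 2 genes of this list past 1.2-fold on their brightest probe sets, against 13.1% of all assessed genes. Each rests on a single probe set above the floor.

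Genes for the release of ligands from the membrane had small differences, and 6 of 7 assessed were higher on the MIF array, with a median of 0.08. Adam9 was at 1240 with PBS and 1403 with MIF. Adam17, for the main protease that releases Tgfa and Hbegf, was at 527 and 587, a difference of 0.16, and at 0.11 on a second probe set. Tspan15, a tetraspanin that guides ADAM10, was the lower gene, at 1051 and 972. None of the 7 reached 1.2-fold, against 13.1% of all assessed genes, 46.7% of which were higher by sign alone.

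Adaptor genes, which couple the receptors to their pathways, had a median of 0.03, with 9 of 13 assessed higher. That median is the lower bound of Cbl, at 222 with PBS and 236 with MIF. Cbl reached the floor only with MIF, so it could only count among the 9. Shc1, for the adaptor that recruits GRB2 to the receptors, was at 447 with PBS and 573 with MIF, 1.28-fold higher, while its second probe set stayed under the floor at 194 and 204. The related adaptors Nck1 and Nck2 had differences of -0.13 and 0.17. By brightest probe set, Shc1 was the only adaptor gene of the 13 past 1.2-fold, against 13.1% of all assessed genes. A second probe set of Cblc was also past it, at -0.29 against -0.03 on the brightest. Second probe sets of Crk (0.09) and Eps8 (0.20) were not.

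In the RAS and ERK cascade, 6 of 8 assessed genes were higher and 2 lower, with a median of 0.08. None passed 1.2-fold on its brightest probe set, against 13.1% of all assessed genes. Rasa1, for a GTPase-activating protein that switches RAS off, was at 773 with PBS and 901 with MIF, a difference of 0.22, but at -0.08 on a second probe set. Shoc2, a scaffold that promotes RAF activity, was at 1298 and 1454. Map2k2, for the kinase MEK2, was at 1049 and 941, a difference of -0.16, although a second probe set under the floor on the PBS array gave a bound of 0.39. Rasa1 and Map2k2 thus had probe sets of opposite sign.

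In the PI3 kinase and AKT branch, 6 of 11 assessed genes were higher, with a median of 0.05. On brightest probe sets, Pdpk1, for the kinase PDK1 that activates AKT, had the largest difference of all 88 genes, 1.38-fold higher. Its signal was 766 with PBS and 1054 with MIF. Its second probe set gave 373 and 363, a difference of -0.04. Foxo3, a transcription factor restrained by AKT, was at 478 and 405, a difference of -0.24, against 0.18 on a second probe set. Rheb, the GTPase that activates mTORC1, was at 2227 and 2529. For Pdpk1 and Foxo3 the probe sets again disagreed in sign, as they did for Pik3r1, at -0.17 on its brightest and 0.26 on its second. Akt1 was at 0.05 on its brightest probe set, which is the median of this branch, and at 0.68 on its second. Without the probe set types that may bind several transcripts, the median of this branch was 0.0098.

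Of 6 assessed genes of the SRC and STAT branch 4 were higher, with a median of 0.06. Yes1, a SRC family kinase, was at 440 with PBS and 521 with MIF, a difference of 0.24. Jak1 and Src had differences of 0.11 and 0.08. No gene of this branch reached 1.2-fold, against 13.1% of all assessed genes.

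ERK feedback and target genes, which are transcribed when the receptors signal, had the highest median of the 10 lists, at 0.18, and 11 of 14 assessed were higher. On brightest probe sets, 5 were at least 1.2-fold higher, against 6.82% of all assessed genes, and none was as far lower. A second probe set of Ccnd1 was lower by more than 1.2-fold, at -0.35 against -0.03 on the brightest. Mcl1 had 0.06 on its brightest and -0.19 on its second, and Klf6 had 0.20 and 0.12. Phlda1, an early response gene, was at 815 with PBS and 1093 with MIF, 1.34-fold higher. Zfp36, whose product destabilises cytokine transcripts, was at 2335 and 3098, 1.33-fold higher. Dusp6, the phosphatase that switches ERK off in the cytoplasm, was at 482 and 595, 1.24-fold higher. The nuclear phosphatase gene Dusp1, at 2763 and 3336, and Spred2, an inhibitor of RAS signalling at 685 and 827, were both 1.21-fold higher and were named after their values were seen. Many of these genes respond to stimuli other than EGF receptor ligands, and several are immediate early genes that an earlier reading of these data had shown higher, so the count is no independent evidence.

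Receptor trafficking genes had a median of 0.05, with 11 of 18 assessed higher and 7 lower. Ap2m1, a subunit of the clathrin adaptor that takes receptors into the cell, was at 2134 with PBS and 1777 with MIF, a difference of -0.26. By brightest probe set, Ap2m1 was the only gene of the 88 to be lower by 1.2-fold. Second probe sets of Ccnd1 and Cblc were also lower by 1.2-fold, as given with their lists. In this list the second probe set of Snx9 was higher, at 0.32, against 0.14 on its brightest. Usp8, a deubiquitinase that spares receptors from degradation, was at 546 and 640, a difference of 0.23. The ubiquitin ligase gene Itch was at 578 and 646.

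**Figure D4:**
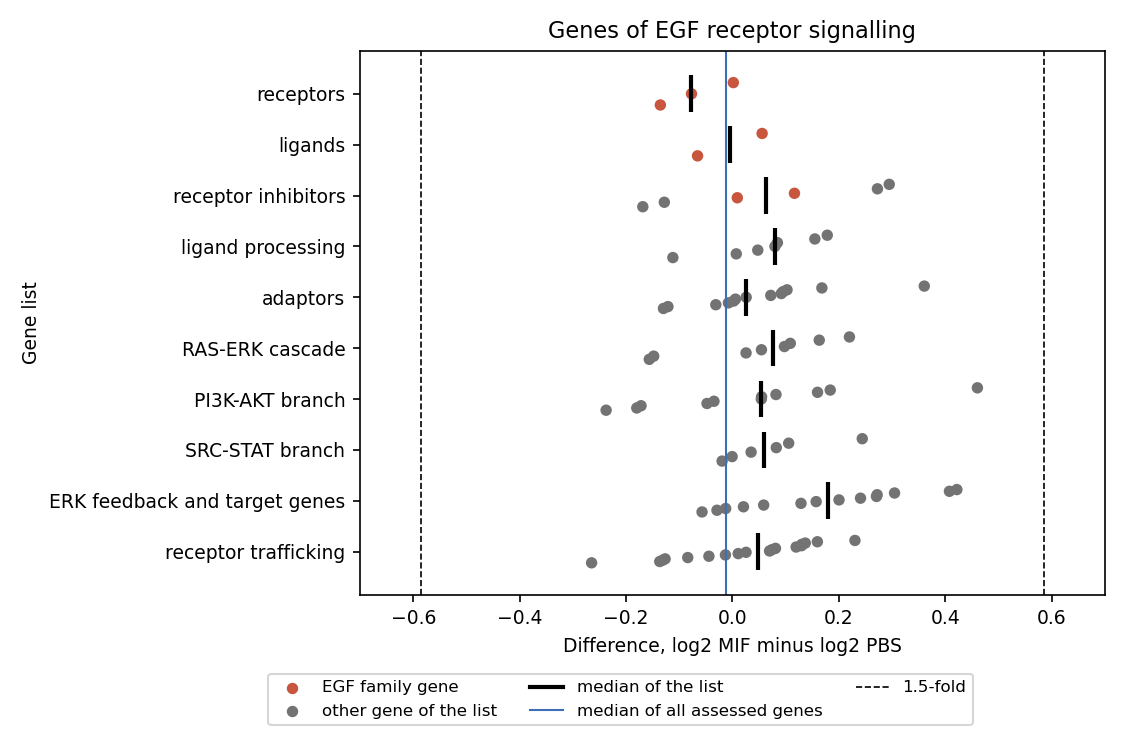
Difference (log2 MIF minus log2 PBS) of each assessed gene in the 10 pathway lists, with EGF family genes in red, the median of each list as a black bar and the median of all assessed genes (-0.01) as a blue line. No point reaches the dashed 1.5-fold lines, Egfr and the adaptor gene Cbl being drawn at their lower bounds. The ERK feedback and target genes have the median farthest to the right, at 0.18.

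Positions on the chromosomes, which the choice of genes did not use, were also looked up, and only some members lie side by side. In the order of protein-coding genes of assembly GRCm38.p6, Epgn, Ereg, Areg and Btc follow each other on chromosome 5. Ereg and Btc, the genes of this run of ligands that had probe sets, were under the floor. Parm1, the next gene after Btc, was at 1559 with PBS and 1637 with MIF, a difference of 0.07. Egfr and Erbb2 both lie on chromosome 11 but not beside each other. Erbb2 is followed by Mien1, at 1442 and 1362, and by the adaptor gene Grb7, at 589 and 633. Erbb3 on chromosome 10 lies between Pa2g4, for a protein that binds ERBB3, at 1518 and 1451, and the ribosomal protein gene Rps26, at 8707 and 8370. Taking the nearest 2 genes on either side of each member except Hbegf, 12 neighbours that are not members were assessed. Their median difference was -0.05, beside -0.01 for all assessed genes, and none reached 1.2-fold, against 13.1% of all assessed genes.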

How the data were processed

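The authors deposited 1 processed signal intensity for each probe set, on a scale that the values show to be linear. Per the labels' protocols, Trizol RNA was converted to biotinylated cRNA by the Affymetrix procedure. How probes were summarised, corrected and scaled, and how the 15340 probe sets were chosen, is not given in the sources used here. After 61 array controls were left out, 14049 probe sets had 1 gene symbol in GEO's platform annotation, which can be old, 490 had several and 740 had none. For 14034 the symbol was brought up to date by Entrez ID.

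The arrays were used as deposited, since their medians differed by 0.04 on the log2 scale. The floor, the probe set rule and the thresholds are given with the results. The members and gene lists were chosen with earlier results of these data known. Besides every member, the text names the 3 largest differences above the floor in each other pathway list and markers read above the floor. Other genes named were chosen after their values were seen. Among them are Cbl, Dusp1, Spred2, Egf, Nrg3, Nrg4, Erbb4, Pdgfra, Col1a1, Mcpt1, Acta2 and the chromosomal neighbours. Akt1, Pik3r1, Cblc, Crk, Eps8, Ccnd1, Mcl1, Klf6 and Snx9, named for their second probe sets, are also among them. No likeness of pattern between genes can be measured with 2 arrays.

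The alternatives were median centring, quantile normalization, floors at the 20th and 60th percentile or none, averaged probe sets, exclusion of the _x_at and _s_at types, which may bind several transcripts, subtraction of a loess trend over signal (span 0.3), and calls at 1.2-fold and 2-fold. Taking the floor with array controls, and the 1.2-fold counts with a lower floor or none, were added after the data were seen. The 1.5-fold call was tried on simulated data, with 1.2-fold and 2-fold shifts planted in genes well above the floor. The simulated noise was smaller than the pooled SD of 0.15 between probe sets of a gene, and both shifts lay well away from 1.5-fold. That trial checks the calculation and cannot say how reliable a call is on these arrays. Shifts in genes near or under the floor, and calls at 1.2-fold, were not tried in this way. Computation used pandas 2.3.3, numpy 2.4.6 and statsmodels 0.14.6 under Python 3.11.15, and figures matplotlib 3.10.9.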

Additional observations from a re-analysis of the deposited data

How the results depend on the processing

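The count of members past 1.5-fold was 0 under every scaling, floor and probe set alternative run. At 1.2-fold and at 2-fold it was 0 with the floor at the 40th percentile. At 1.2-fold, a pair of settings added after the data were seen gave 3 of 9 members, Egfr, Ereg and Btc, all higher with MIF: with the floor at the 20th percentile, where 17.8% of all genes passed in either direction, and with no floor, where 25.9% did. Those shares are over all genes and were not taken among genes as dim as Egfr, Ereg and Btc. Members assessed numbered 7, and from 5 with the floor at the 60th percentile to 9 with it at the 20th percentile or none. Their median difference was 0.0018, the bound of Egfr, and ran from -0.07 to 0.06. Erbb2 and Erbb3 stayed below 0 and Errfi1 and Tgfa above 0 wherever they were assessed. Lrig1 turned to -0.03 with median centring, -0.02 with quantile normalization and -0.02 with the intensity trend removed, and was 0.19 with averaged probe sets. Hbegf turned to 0.05 with averaged probe sets. Egfr was 0.31 with the floor at the 20th percentile and with none; it was not assessed with median centring, quantile normalization, the intensity trend removed, the floor at the 60th percentile or the floor taken with array controls. Among the pathway genes, 3 passed 1.5-fold without a floor (Egf, Nrg4 and Timp3, all under the floor on both arrays), where 7.49% of all genes did. At 1.2-fold 10 of 88 passed with the floor at the 40th percentile, against 13.1% of all genes, 14 of 99 with it at the 20th percentile and 20 of 110 without a floor. The ERK feedback and target list kept a median between 0.14 and 0.20. Signals under the floor limit what can be said of Egfr, Ereg and Btc.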
